A study of Homo sapiens with 30 samples.

Results

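A549 cells received GSK591, which inhibits PRMT5, for 7 days at 1 µM, and nascent transcription was compared with that of untreated cells over all genes. The comparison was taken from the sample labels. It rests on 4 of the 30 libraries of the study, 2 of each group, and on the 22919 of 58780 counted genes that passed a filter on low counts. A549 is a human lung adenocarcinoma line of epithelial cells. Transcription was measured by PRO-seq, in which engaged RNA polymerases add a labelled nucleotide to their transcripts in permeabilised cells, so that reads report ongoing synthesis. The labels give 0.01% DMSO for all groups used here, untreated cells included. The untreated libraries carry a time of 15 min, so that 7 days in culture and 7 days of inhibitor cannot be told apart in the main comparison. Further groups served as comparisons. GSK591 for 2 and 4 days at 1 µM gave earlier times. MS023, which blocks Type I enzymes of the same kind, was given for 7 days at 1 µM. Further cells had GSK591 for 7 days followed by dexamethasone (Dex, a synthetic glucocorticoid, 100 nM) for 15 min or 3 h. They were set against cells with the same Dex treatment alone. The labels give no 7-day period for Dex alone, so the limit on time in culture holds there too. It also holds for GSK591 at 7 days against 2 or 4 days.

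PRMT5 is an arginine methyltransferase and places symmetric dimethyl groups. Its substrates include Sm proteins, which form the core of spliceosomal snRNPs, RNA-binding proteins with glycine- and arginine-rich stretches, and histones. Type I enzymes such as PRMT1 place asymmetric dimethyl groups, partly on the same proteins. Loss of PRMT5 activity is known to disturb splicing, including that of MDM4, a negative regulator of p53, and to slow the cell cycle in many cell types. A549 cells lack CDKN2A.

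The 4 libraries held 10251670 to 13069598 counts, of which 73.4% to 78.7% fell on mitochondrial genes and 1914570 to 2760754 on nuclear genes. The second GSK591 library had the highest mitochondrial share and the lowest nuclear count of all 30 libraries. Summed counts of epithelial and A549 marker genes were 10259 and 10052 in untreated cells and 8023 and 7813 with GSK591. Keratin genes, ALDH1A1, AKR1B10 and AKR1C1 made up most of them. EPCAM (10 to 24 counts), CDH1 (14 to 37) and GATA6 (14 to 20) were low. CDKN2A and CDKN2B had 0 or 1 counts per library. Summed markers of blood, endothelium or fibroblasts stayed between 6 and 69 counts, with CD14 at 12 to 42. MTAP, the neighbour of CDKN2A, was listed with the genes of that deletion but had 69 to 147 counts. The labels do not say whether replicates came from separate cultures, so the spread behind the p-values may be technical. That spread was estimated within all 15 groups of the 30 libraries together. Whether counting used introns or strand is not given in the sources used here. Of the 192 genes with values at hand for this text, 84 have an exon overlapped by another gene, whose reads could be mixed with theirs.

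After 7 days of GSK591, 3026 of 22919 genes (13.2%) passed the edgeR quasi-likelihood test at a Benjamini-Hochberg adjusted p of 0.05. Of these, 1532 were higher (6.68% of genes) and 1494 lower (6.52%). The median log2 fold change was 1.01 among higher genes, 775 of which changed by at least 1, and -0.74 among lower genes, 482 of which did. Protein-coding genes made up 1145 of the higher and 1249 of the lower genes, while among 1698 lincRNA genes 138 were higher and 42 lower. In all 3026 called genes both GSK591 libraries lay on the same side of both untreated libraries, as they did in 55.8% of all genes tested. Most counts of these libraries are mitochondrial, as given above, and with total counts as the only scaling the number of calls was lower (1135). It was near the main value with DESeq2 size factors (3056) and with nuclear genes outside rRNA only (3042). Fits that left out 1 library called fewer genes. In all of these fits each of the 3026 genes kept its direction.

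The gene of the targeted enzyme did not pass the test. PRMT5 stood at 7.90 and 8.77 CPM (counts scaled to the size of the library) in untreated cells and at 7.56 and 8.98 with GSK591, a log2 fold change of -0.02 ± 0.20 (SE, adjusted p = 0.970). This does not test the inhibitor, which acts on the enzyme and not on its gene. Among 7 tested arginine methyltransferase genes, 2 fell. PRMT1, the main Type I enzyme, went from 56.2 and 55.8 to 37.8 and 41.3 CPM (-0.50 ± 0.11, adjusted p = 0.00102), and PRMT3, which methylates a ribosomal protein, fell by 0.55 on the log2 scale (adjusted p = 0.00818). The calls of PRMT1 and PRMT3 were lost with total counts as the scaling, and that of PRMT3 also without the second GSK591 or the second untreated library (adjusted p up to 0.200). Of the 12 genes for PRMT5 partners and for the SMN complex, which loads Sm proteins onto snRNAs, only GEMIN4 passed the test (-0.58 ± 0.12), and not with total counts (adjusted p = 0.0793). The PRMT5 cofactor WDR77 had a value of -0.09 and the substrate adaptor CLNS1A of 0.01.

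Most of the listed targets of p53 rose. Of 30 tested target genes, 17 were higher and none was lower, with a median log2 fold change of 0.65 against -0.00 over all genes tested. MDM2, the ubiquitin ligase that limits p53, went from 43.5 and 42.3 to 112 and 147 CPM (1.59 ± 0.11, adjusted p = 2.25e-15). CDKN1A, which encodes the CDK inhibitor p21, went from 10.3 and 11.1 to 32.9 and 24.0 (1.41 ± 0.15, adjusted p = 1.38e-09). For both genes the GSK591 libraries lay well above the untreated ones, with no overlap. SPATA18, a mitochondrial quality control gene, rose by 1.76, the antiproliferative gene BTG2 by 1.29 and PHLDA3, an inhibitor of AKT, by 1.23. The death genes FAS and BAX rose by 1.14 and 0.64, and the stress cytokine GDF15 by 0.88. FAS lost its call without the second GSK591 or the first untreated library (adjusted p up to 0.106), and BAX with total counts as the scaling (0.0694). With total counts as the scaling 10 of the 30 targets were higher. CDKN1C, which encodes the CDK inhibitor p57, was at 3.11 and 0.907 in untreated cells and at 8.14 and 8.84 with GSK591, a rise of 2.10 ± 0.38 (adjusted p = 0.000439), and its untreated libraries differed more from each other than the treated ones.

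The largest rise among genes with at least 5 CPM was that of the gene of carboxypeptidase M, whose symbol, CPM, is the same as the unit. It had 57 and 51 counts in untreated cells and 394 and 405 with GSK591 (3.12 ± 0.18, adjusted p = 3.10e-18). It lies at chr12:68842197-68971570 on the minus strand of hg38, and its 3' end overlaps that of MDM2 at chr12:68808176-68850686 on the plus strand, so reads of the pair cannot be told apart without strand. In the authors' deposited table, whose counting is not given in the sources used here, its log2 fold change was 0.66 and that of MDM2 was 1.87.

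Genes for DNA replication were lower with GSK591. Of 51 replication and S phase genes, 39 were lower and none higher (median -1.09). Their summed transcription was 845 and 821 CPM in untreated cells and 420 and 426 with GSK591. CDC45, part of the replicative helicase, went from 10.1 and 9.77 to 1.51 and 2.41 CPM (-2.35 ± 0.28, adjusted p = 1.43e-08). MCM2, a subunit of the same helicase, went from 15.0 and 15.1 to 4.30 and 2.55 (-2.11 ± 0.23, adjusted p = 1.86e-09). In both genes the treated libraries were several-fold below the untreated ones. MCM5 fell by 1.92, MCM6 by 1.84, RRM2, a subunit of ribonucleotide reductase, by 1.74, and CLSPN, a replication checkpoint adaptor, by 2.17. Among the 12 members that did not pass were the cyclin genes CCNE1 (-0.01) and CCNE2 (-0.03). These are bulk libraries, so fewer cells in S phase and less transcription per cell cannot be told apart.

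Among 27 cell cycle control genes, 10 were lower and 3 higher. The lower ones included the transcription factors E2F1 (13.2 and 17.4 CPM, then 5.93 and 4.29), E2F2, E2F7, E2F8, MYBL2 and FOXM1, and RBL1, a pocket protein of the retinoblastoma family. Their log2 fold changes ran from -1.11 for FOXM1 to -2.29 for RBL1. CDKN1A and CDKN1C, given above, were 2 of the 3 that rose. CCND1, the gene of cyclin D1, stood at 53.9 and 60.6 in untreated and at 58.7 and 59.4 with GSK591 (0.04 ± 0.11), and MYC at 93.3 and 88.8 against 84.6 and 74.5 (-0.19 ± 0.12, adjusted p = 0.295). The groups overlapped for CCND1, and for MYC they lay close without overlap.

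Mitotic genes had the lowest median of the 25 lists. Of 52 genes of mitosis and G2/M, 40 were lower (median -1.64), and summed transcription went from 807 and 755 to 309 and 299.5 CPM. AURKB, a kinase of the chromosomal passenger complex, went from 34.0 and 37.8 to 5.11 and 8.31 CPM (-2.44 ± 0.15, adjusted p = 2.28e-17). KIF18B, a kinesin that shortens astral microtubules, went from 34 and 35 to 7.09 and 5.76 (-2.42 ± 0.15, adjusted p = 1.07e-17). Neither gene had a treated library near an untreated one. MKI67, the proliferation marker Ki-67, went from 80.7 and 68.4 to 16.3 and 17.6 (-2.14 ± 0.45, adjusted p = 0.00429). KIF14, a cytokinesis kinesin, fell by 2.56, CDK1 by 2.22, BIRC5 by 1.96 and CCNB1 by 1.67. CENPA, the centromeric histone variant, was the single member that rose (22.7 and 23.3, then 32.4 and 40.2, a rise of 0.66), and CCNB2 did not pass (-0.12). The number of lower genes was 30 with total counts as the scaling and 24 to 31 when 1 library was left out. Without the first GSK591 library the calls of MKI67 (adjusted p = 0.0510) and CLSPN (0.0577) were lost, and without the second those of KIF14 (0.0530) and CENPA, the latter also with total counts as the scaling (adjusted p up to 0.0779). CENPF, a kinetochore protein gene, lost its call without any one of the 4 libraries (adjusted p up to 0.176).

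To show what stands upstream of these genes, promoter stretches are given below for the 3 called genes of each list that fell most, out of those averaging 5 CPM or more whose groups did not overlap and that have a RefSeq promoter, from 150 bases before to 30 bases after the start (RefSeq, GRCh38.p14, 5′ to 3′ on the gene's strand). Capitals mark the E2F words TTTCCCGC, TTTCGCGC, TTTGCCGC and TTTGGCGC in replication genes and the CHR word TTTGAA, for cell cycle genes homology region, in mitotic genes, on either strand. The replication genes are CDC45 at chr22:19479770-19479949 (plus strand), CLSPN at chr1:35769949-35770128 (minus strand) and MCM2 at chr3:127598261-127598440 (plus strand). The mitotic genes are KIF14 at chr1:200620722-200620901, AURKB at chr17:8210196-8210375 and KIF18B at chr17:44947744-44947923, all on the minus strand.
CDC45: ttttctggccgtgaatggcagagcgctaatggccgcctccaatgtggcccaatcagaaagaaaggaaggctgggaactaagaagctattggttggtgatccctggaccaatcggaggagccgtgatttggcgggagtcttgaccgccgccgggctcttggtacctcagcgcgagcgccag
CLSPN: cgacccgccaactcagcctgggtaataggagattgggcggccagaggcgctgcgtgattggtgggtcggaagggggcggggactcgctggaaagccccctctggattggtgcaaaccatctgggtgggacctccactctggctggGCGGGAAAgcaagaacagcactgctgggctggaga
MCM2: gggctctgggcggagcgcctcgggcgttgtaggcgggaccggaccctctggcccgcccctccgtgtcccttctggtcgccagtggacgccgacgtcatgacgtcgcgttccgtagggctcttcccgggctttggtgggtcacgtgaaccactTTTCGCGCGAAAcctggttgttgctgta
KIF14: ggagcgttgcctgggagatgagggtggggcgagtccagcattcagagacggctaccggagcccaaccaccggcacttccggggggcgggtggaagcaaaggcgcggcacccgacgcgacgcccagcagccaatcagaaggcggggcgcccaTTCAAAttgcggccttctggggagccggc
AURKB: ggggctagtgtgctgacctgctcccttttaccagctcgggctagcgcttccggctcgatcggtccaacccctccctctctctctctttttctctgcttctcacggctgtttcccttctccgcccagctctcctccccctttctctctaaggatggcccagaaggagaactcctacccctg
KIF18B: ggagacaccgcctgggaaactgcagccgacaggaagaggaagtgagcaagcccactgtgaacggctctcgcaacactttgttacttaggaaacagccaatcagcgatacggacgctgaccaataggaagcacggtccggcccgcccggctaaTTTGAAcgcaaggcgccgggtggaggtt

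The MCM2 stretch holds overlapping E2F words on both strands and CLSPN a single one, while CDC45 holds none of these words. KIF14 and KIF18B each hold the CHR word a few bases after the start, and the AURKB stretch does not. A single start per gene was used, and other starts were not looked at. In the AURKB stretch an ATG follows that start almost at once, so its bases may not be the promoter in use. Over the 300 bases around the start (250 before, 50 after) of 11875 protein-coding genes, an E2F word was present in 5.04% of all promoters, in 18 of 42 of the replication list (42.9%) and in 3 of 46 of the mitotic list (6.52%). The CHR word was present in 9.87% of all promoters, in 32 of 46 of the mitotic list (69.6%) and in 2 of 42 of the replication list (4.76%). These list shares include members that were not called, so they do not describe the response to GSK591. Genes called lower held the E2F word in 11.9% and the CHR word in 17.4%. The shares were 2.55% and 8.35% for genes called higher and 4.55% and 9.23% for genes not called. For 874 lower genes outside the cell cycle, repair, centrosome and histone lists they were 9.04% and 14.9%. Those lists do not hold every cell cycle gene, so the 874 may include others. A match describes the letters in the window, not a bound site.

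Repair and centrosome genes followed the same direction. Of 41 genes of homologous recombination and the Fanconi pathway, 21 were lower and none higher (median -0.95). BRCA1 went from 19.7 and 17.9 to 6.16 and 6.57 CPM (-1.56 ± 0.24, adjusted p = 3.86e-05). FANCD2 fell by 1.99 and the helicase gene BLM by 2.33. Of 24 centriole and centrosome genes, 9 were lower and none higher (4 to 9 lower when 1 library was left out), among them PLK4, the kinase that starts centriole duplication, which went from 12.5 and 11.8 to 2.79 and 3.22 (-2.01 ± 0.23). TERT, the catalytic subunit of telomerase, went from 9.23 and 8.97 to 2.21 and 0.938 (-2.49 ± 0.31, adjusted p = 3.44e-08). The treated libraries of these genes were all below the untreated ones.

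Histone genes were lowered as a block. Of 59 tested histone genes taken by symbol as replication-dependent, 52 were lower and none higher (median -0.96), and their summed transcription went from 2924 and 3329 to 1503 and 1516 CPM. H3C15 went from 235 and 257 to 62.3 and 67.5 CPM (-1.92 ± 0.11, adjusted p = 3.10e-18), and the linker histone gene H1-3 from 77.6 and 93.9 to 22.4 and 23.5 (-1.90 ± 0.18). The symbol rule also takes in H1-8 and H1-10, which are not replication-dependent and did not pass the test. H3C14 and H3C15, and other members of a type, are near-identical copies, so their counts may be split or shared. With any alternative run, 41 to 54 members were lower and none higher.

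**Figure D1:**
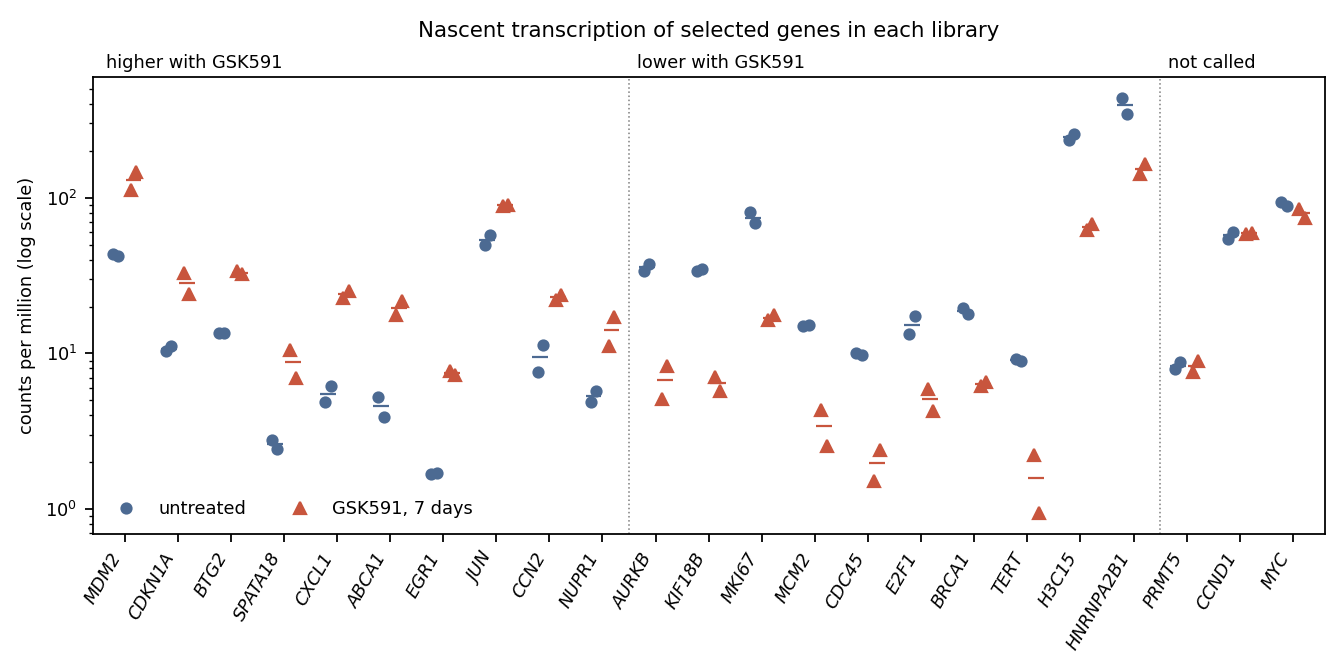
CPM on a log scale in each of the 4 libraries (circles for untreated, triangles for GSK591 for 7 days, lines for group means) for genes that were higher, lower or not called. MDM2 stands at 43.5 and 42.3 in untreated cells and at 112 and 147 with GSK591, AURKB moves the other way, and PRMT5, CCND1 and MYC do not pass the test.

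Genes for RNA-binding proteins were also lower. Of 25 hnRNP and RGG protein genes, many of them substrates of arginine methylation, 15 were lower and none higher (median -0.56). HNRNPA2B1 went from 440 and 344 to 141 and 164 CPM (-1.36 ± 0.28, adjusted p = 0.00358). TAF15, an RNA-binding protein with RGG stretches, fell by 1.13 and HNRNPA1 by 0.80, while HNRNPM (-1.25, adjusted p = 0.0691) and HNRNPK (-0.26) did not pass. HNRNPM was called under 4 of the 13 alternatives, DESeq2 among them. Of 22 Sm and snRNP core protein genes, 4 were lower, namely SNRPF, SNRPA, LSM8 and SNRPB, against 2 with total counts and 2 or 3 when 1 library was left out. LSM8 lost its call with total counts and without the second GSK591 or second untreated library (adjusted p up to 0.130). SNRPB lost its call with DESeq2, with total counts and without the first GSK591 or second untreated library (adjusted p up to 0.347). The direct PRMT5 substrates SNRPD1 (-0.78, adjusted p = 0.0560) and SNRPD3 (-0.63, 0.0727) were not called. SNRPD1 was called under 5 of the 13 alternatives, the replicate block among them. Both substrates were called lower in the authors' deposited table, with values given below. Of 14 SR splicing factor genes, TRA2B (-0.87) and SRSF10 (-0.69) were lower, the latter not with total counts or without the first untreated library (adjusted p up to 0.0799). With total counts as the only scaling, 6 of the 25 hnRNP and RGG genes were lower, and 8 to 14 when 1 library was left out. HNRNPA2B1 lost its call without the first GSK591 library (adjusted p = 0.0503), and TAF15 and SNRPF lost theirs without the first GSK591 or the first untreated library (adjusted p up to 0.0695 and 0.119).

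The genes of the spliceosomal RNAs themselves were looked at after their values were seen. Among 62 tested snRNA genes, 21 were lower and none higher (median -0.94), and their summed transcription went from 472 and 485 to 240 and 223 CPM. All 13 tested U2 loci were lower, by 1.00 to 1.69 on the log2 scale, with summed values of 288 and 292 in untreated cells and 127 and 114 with GSK591. Of 19 U1 loci 6 were lower, and all 4 tested loci of U3, the snoRNA of early rRNA processing, were lower. Loci of a family are near-identical, so these counts cannot be assigned to single loci and the loci are not independent.

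Genes of the translation machinery shifted by small amounts in the same direction. Of 82 cytosolic ribosomal protein genes, 51 were lower (median -0.42), against 6 with total counts as the scaling and 21 to 42 when 1 library was left out. RPL31 went from 76.4 and 81.8 to 48.7 and 50.7 CPM (-0.67 ± 0.10, adjusted p = 3.95e-06), whereas RPS19 did not pass (-0.08). The single rise was that of RPS27L, from 50.9 and 51.5 to 79.2 and 101 (0.81 ± 0.12), a paralog of RPS27 that is also a p53 target. Of 16 snoRNA host genes, 10 were lower, led by SNHG1 (48.6 and 44.5, then 20.3 and 19.0), against 3 with total counts and 6 to 10 when 1 library was left out. Of 30 genes for ribosome biogenesis, 9 were lower, against 2 with total counts and 3 or 4 when 1 library was left out. TCOF1, a nucleolar factor of rRNA transcription, went from 37.7 and 38.3 to 15.6 and 16.6 (-1.24 ± 0.14). NCL (-1.24) and NPM1 (-1.13), which encode abundant nucleolar proteins, passed with adjusted p of 0.0303 and 0.0409 and lost the call in each fit that left out 1 library. Many of these genes have processed pseudogenes that could take or give reads.

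Signalling and matrix genes held changes in both directions. Of 27 genes of EGFR receptors, ligands and MAPK feedback, 5 were higher and 3 lower. EGR1, an immediate early transcription factor, went from 1.67 and 1.71 to 7.67 and 7.24 CPM (2.13 ± 0.30, adjusted p = 4.75e-07). JUN went from 49.9 and 57.3 to 89.2 and 90.5 (0.74 ± 0.12), FOS rose by 0.54 and its relative FOSL1 fell by 0.63. Both calls were lost with total counts, that of FOS also without the second GSK591 or second untreated library (adjusted p up to 0.178) and that of FOSL1 without the first GSK591 library (up to 0.0920). Of 32 extracellular matrix and adhesion genes, 7 were higher and 3 lower. CCN2, a matricellular protein, went from 7.56 and 11.4 to 22.1 and 23.9 (1.27 ± 0.15, adjusted p = 2.79e-08), and its relative CCN1 from 24.5 and 26.4 to 51.1 and 49.98. The treated libraries of both lay above the untreated ones. With total counts as the scaling, 2 of the signalling and 3 of the matrix genes were higher and none lower. When 1 library was left out, 3 to 5 of the signalling genes were higher and 1 or 2 lower, and 3 or 4 of the matrix genes higher and 1 or 2 lower.

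Stress, interferon and metabolic lists held few calls. Of 35 interferon-stimulated genes, 2 were higher and 2 lower (median 0.19). TRIM22, an antiviral and p53-responsive gene, rose by 3.12 ± 0.65 from very low levels (0.334 and 0.202 CPM, then 3.25 and 1.47), a call lost without the first GSK591 library (adjusted p = 0.0629). Of 25 genes of the integrated stress response and amino acid synthesis, 4 were higher and 2 lower, with the chromatin protein gene NUPR1 at 4.89 and 5.74 and then 11.2 and 17.2 (1.39 ± 0.20) and DDIT3 not called (-0.81, adjusted p = 0.0544), though it was under 3 of the 13 alternatives. With total counts 1 gene of that list was higher and none lower, and when 1 library was left out 2 to 4 were higher and 1 or 2 lower. Calls were 1 higher and 1 lower among 29 sterol and fatty acid genes and among 22 NRF2 targets, and 2 and 2 among 24 lysosomal genes, beside 6.68% and 6.52% of all genes. Of 20 glucocorticoid-induced genes, CEBPD, KLF9 and SGK1 were higher and PER1, ANGPTL4 and ERRFI1 lower. With total counts 1 was higher and 1 lower, the calls of KLF9, SGK1, ANGPTL4 and ERRFI1 being lost. That of KLF9 was also lost without the second GSK591 or second untreated library (adjusted p up to 0.127), that of SGK1 without the first untreated library (up to 0.257) and that of ERRFI1 without the second (up to 0.155). NR3C1, the glucocorticoid receptor, stood at 47.8 and 49.6 and then 50.2 and 49.2 (0.03 ± 0.11). Of 27 elongation genes, POLR2A, the largest subunit of RNA polymerase II, fell by 0.52, a call lost with total counts (adjusted p = 0.140). PCF11, a factor of transcription termination, passed narrowly (-0.33, adjusted p = 0.0426) and lost the call under 8 of 13 alternatives, among them DESeq2 and each fit that left out 1 library (adjusted p up to 0.388).

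Outside the lists, large rises included the chemokine gene CXCL1, from 4.89 and 6.15 to 22.7 and 25.2 CPM (2.11 ± 0.19, adjusted p = 8.36e-12). ABCA1, the cholesterol exporter, went from 5.23 and 3.93 to 17.6 and 21.6 (2.10 ± 0.25, adjusted p = 1.11e-07). Other genes among the 15 largest rises were ZNF467 (2.37), ARC (2.14), GMCL1 (1.95), CYP3A5 (1.92), HSPB8 (1.86) and LYNX1 (1.85). In the authors' deposited table GMCL1 rose by only 0.61, while ZNF467, ARC, CYP3A5 and HSPB8 rose by 2.65, 2.73, 2.32 and 1.48. Among genes with the highest mean CPM, which are not adjusted for length, PLK2 rose from 131 and 163 to 235 and 228. PLK2 is a kinase gene and belongs to the p53 target list. ALDH3A1, an aldehyde dehydrogenase, rose from 104 and 116 to 215 and 215. In both the treated libraries were the higher ones, and the call of PLK2 was lost with total counts (adjusted p = 0.0661). KRT7, a keratin of simple epithelia, fell from 299 and 272 to 187 and 190 (-0.60 ± 0.10), a call also lost with total counts. Among genes with at least 5 CPM and no overlap of groups PTMAP2 had the largest fall (-2.89), a call lost without any one of the 4 libraries (adjusted p up to 0.171). It is a processed pseudogene whose reads may come from PTMA or its other copies.

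**Figure D2:**
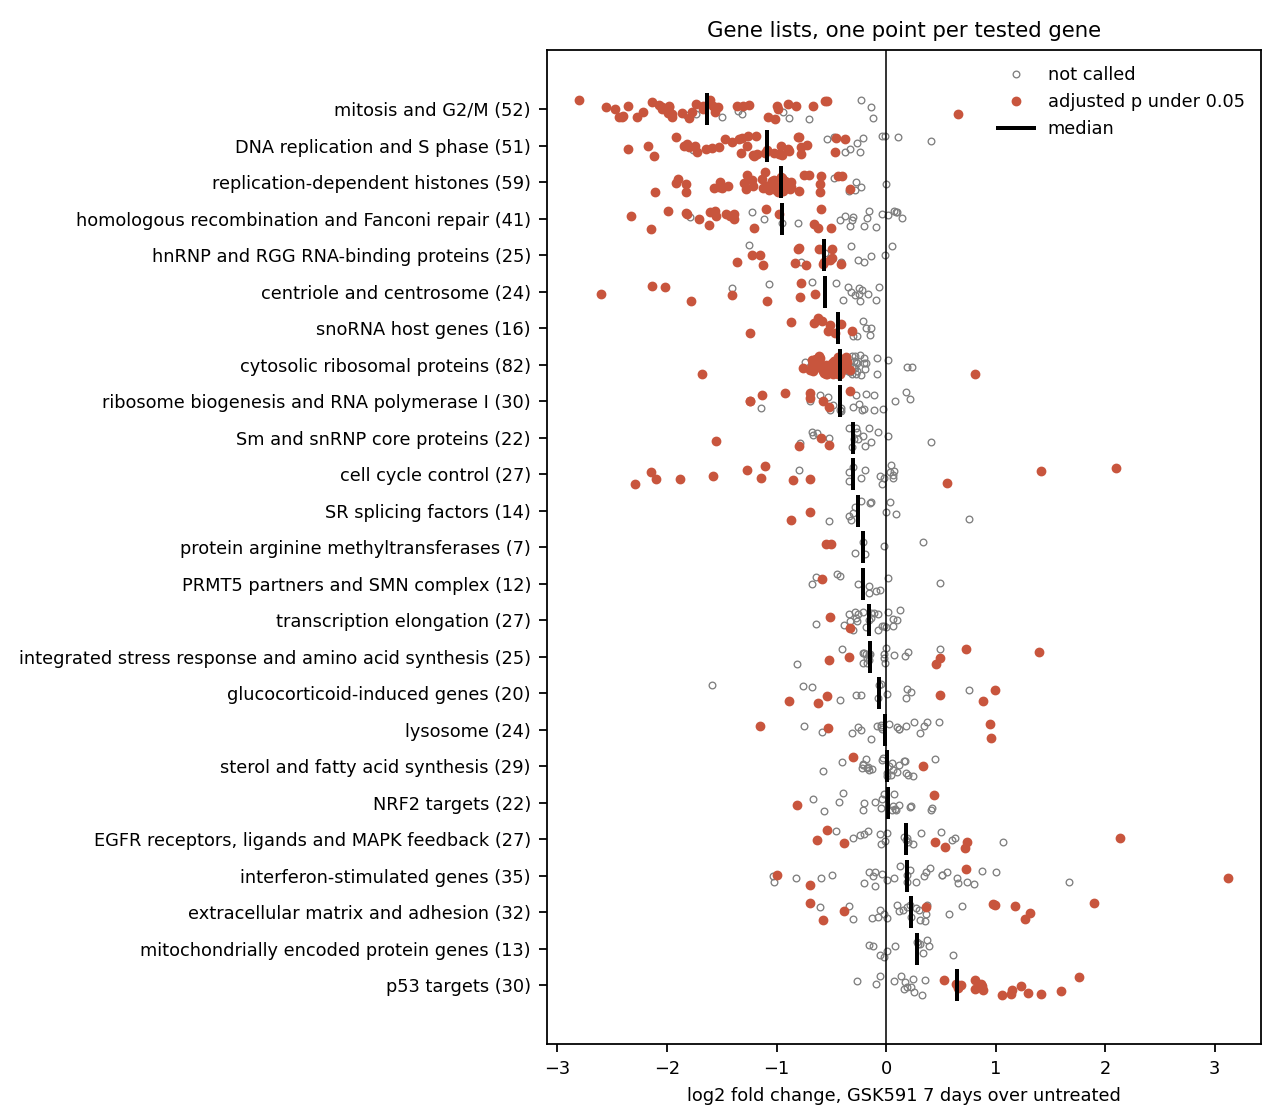
Log2 fold change of GSK591 for 7 days over untreated for each tested gene of 25 lists, with filled points for genes at an adjusted p under 0.05, open points for the rest and a bar at the median. The lists of mitosis, replication, histones and repair lie to the left of 0, with medians of -1.64, -1.09, -0.96 and -0.95, and the p53 targets to the right, with a median of 0.65.

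The difference with GSK591 for 7 days was also measured in cells that received Dex, in 8 libraries outside the main comparison. The cells with Dex alone carry no 7-day period, so time in culture is not separated here either. In cells with Dex for 15 min, 3514 genes (15.3%) were called, 6.75% higher and 8.58% lower. In cells with Dex for 3 h 3107 (13.6%) were called, 6.2% higher and 7.36% lower. Of the 1532 genes higher in the main comparison, 1468 (95.8%) had the same sign with Dex for 15 min and 1395 (91.1%) with Dex for 3 h. Of the 1494 lower genes, 1439 (96.3%) and 1414 (94.7%) did. Those called in the same direction with Dex for 15 min were 782 of the higher genes (51.0% of them and 50.5% of the 1548 higher with Dex) and 920 of the lower genes (61.6% of them and 46.8% of 1966). With Dex for 3 h these were 640 (41.8%, and 45.1% of 1420) and 839 (56.2%, and 49.7% of 1687). Over 11005 genes with at least 5 CPM, Pearson's r of the log2 fold changes was 0.73 and 0.71. It is a description across genes, which are not independent replicates.

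Called in all 3 settings were 469 higher and 695 lower genes, out of 22919 tested. They held 49 of the 59 histone genes, 33 of 52 mitotic, 28 of 51 replication and 31 of 82 ribosomal protein genes as lower, and 10 of 30 p53 targets as higher. MDM2 changed by 1.84 with Dex for 15 min and 1.40 with Dex for 3 h, AURKB by -2.03 and -1.99, and H3C15 by -2.13 and -2.31, beside 1.59, -2.44 and -1.92 without Dex. The hnRNP and RGG genes were called lower for 3 of 25 with Dex for 15 min and for 10 with Dex for 3 h. U2 loci summed to 300.2 and 279 CPM with Dex for 15 min and 171 and 120.1 after GSK591, and to 390.2 and 365 with Dex for 3 h and 129 and 129 after GSK591. With total counts as the scaling, the split with Dex for 15 min became 371 higher and 2625 lower in place of 1548 and 1966.

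**Figure D3:**
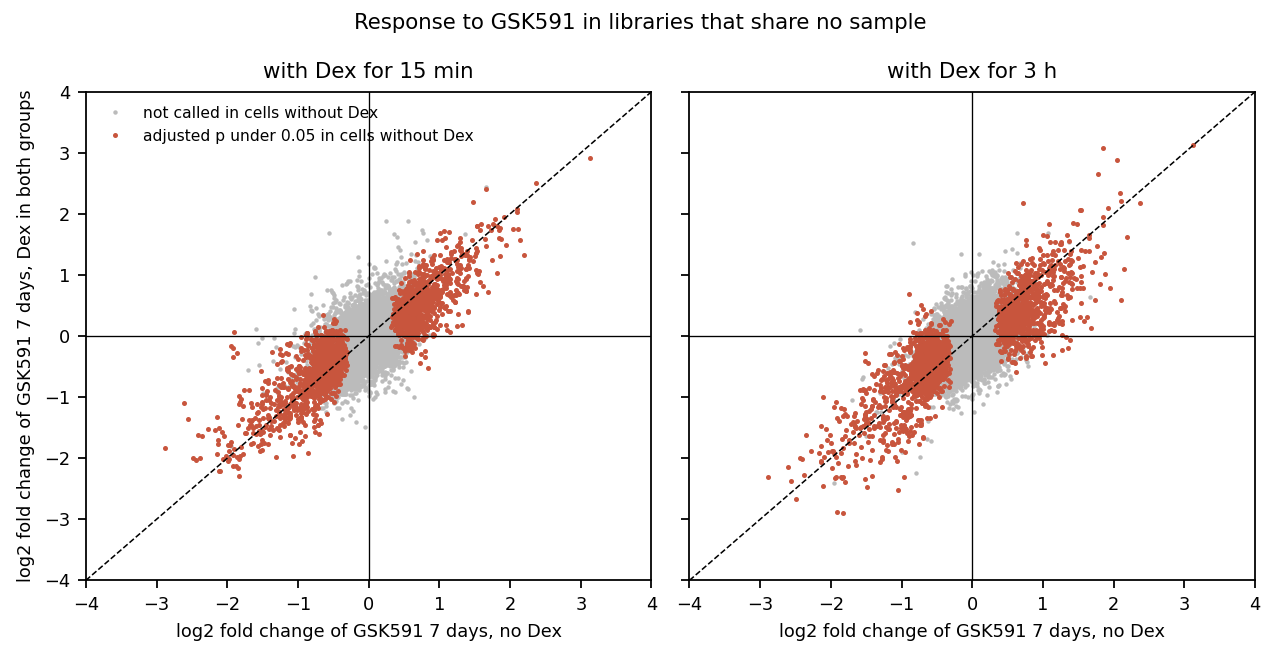
Log2 fold change of GSK591 for 7 days in cells with Dex for 15 min (left) or 3 h (right) against that in cells without Dex, over 11005 genes with at least 5 CPM. Red points passed the test without Dex, the dashed line is equality, and Pearson's r is 0.73 and 0.71. All 1532 genes called higher without Dex had a median of 1.01 there, 0.69 with Dex for 15 min and 0.63 with Dex for 3 h. The 1494 called lower had medians of -0.74, -0.62 and -0.57. These genes were picked by their values without Dex.

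The time at which each group moved was read from direct tests of 7 days against 4 and 2 days of GSK591. Against 4 days 1901 genes (8.29%) were called, 4.05% higher and 4.25% lower at 7 days. Against 2 days 1922 (8.39%) were called, 3.71% higher and 4.68% lower. For histone genes the sums at 4 and 7 days lay close together, below those at 2 days. As percent of the untreated mean, summed histone transcription was 80.7 and 89.3 after 2 days of GSK591. It was 47.5 and 50.6 after 4 days, and 48.1 and 48.5 after 7 days. Against 2 days 45 of 59 histone genes were lower at 7 days and against 4 days 5 were, with 1 higher. For mitotic genes these were 20 of 52 and 2, with 1 higher against 4 days. The summed p53 targets were at 131% and 134% of untreated after 2 days, at the same rounded values after 4 days, and at 148% and 160% after 7 days. In the direct test 5 of 30 targets were higher at 7 than at 4 days with 1 lower. With total counts as the scaling that direction turned, with 5 lower and none higher. Tested against the same untreated libraries, which these comparisons share, 5.64% of all genes were called after 2 days (3.19% higher, 2.45% lower) and 17.2% after 4 days (8.91% and 8.28%). Among histone genes 9 were lower after 2 days and 49 after 4 days, and among mitotic genes 4 and 34. Of the p53 targets 12 and 13 were higher.

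Other genes differed between 4 and 7 days. JUN stood at 17.5 and 24.8 CPM at 4 days, below the untreated 49.9 and 57.3, and at 89.2 and 90.5 at 7 days, a difference of 2.09 between the times (adjusted p = 4.61e-17). CCN1 stood at 16.7 and 17.4 and then at 51.1 and 49.98, a difference of 1.57 (adjusted p = 1.79e-13), and CCN2 differed by 1.50. These 3 genes were thus lower at 4 days than at 7 days in both libraries, and kept the direction and call with total counts as the scaling. The snRNA genes went the other way. Their sum was 157% and 150% of the untreated mean after 2 days. It was 101% and 111% after 4 days and 50.2% and 46.7% after 7 days. Of these genes 26 of 62 were lower at 7 than at 4 days and 34 lower than at 2 days, none higher. Ribosomal protein genes were higher at 7 than at 4 days for 14 of 82 and lower for 2, a direction that turned with total counts, where none was higher and 10 were lower. That scaling shifts the median of all genes by -0.44 against 4 days and -0.32 against 2 days. It left 127 genes higher and 3536 lower against 4 days in place of 928 and 973, and 138 and 1685 against 2 days in place of 850 and 1072.

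**Figure D4:**
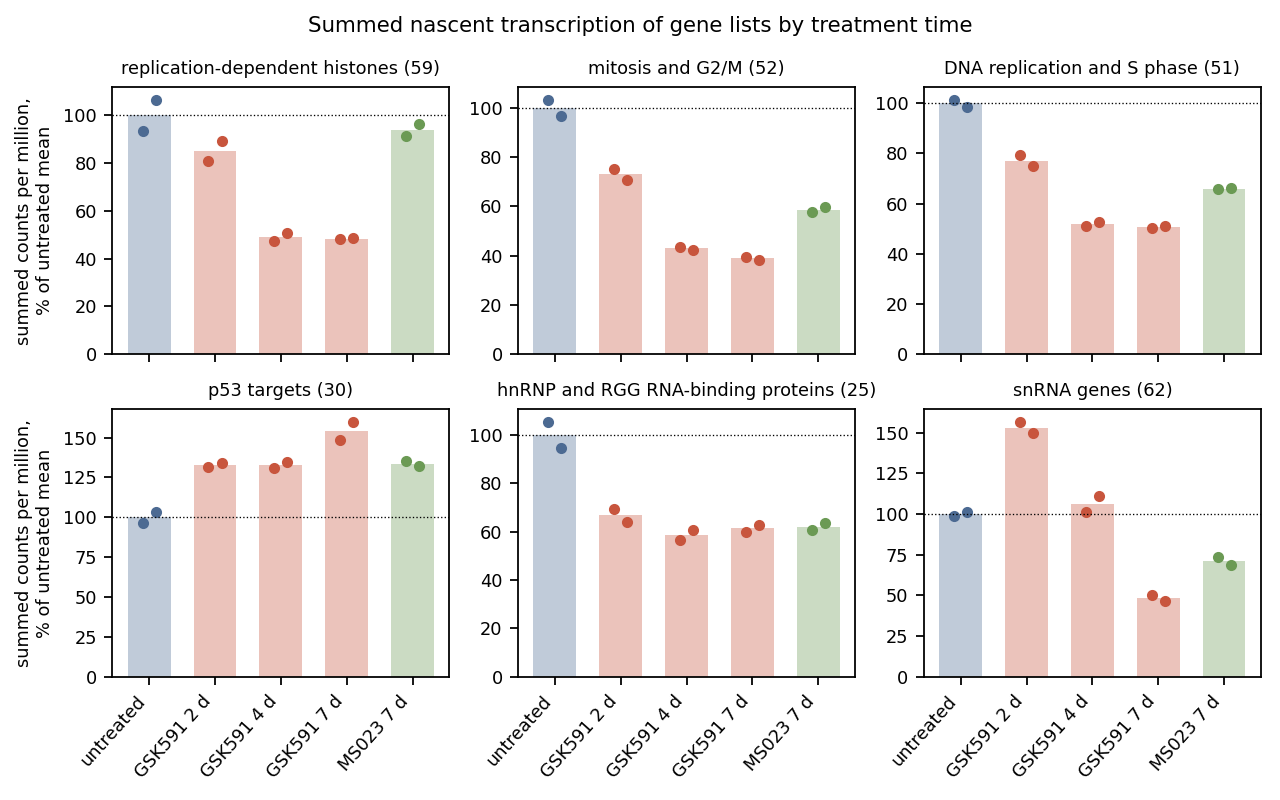
Summed CPM of 6 gene groups, as percent of the untreated mean, in untreated cells, after GSK591 for 2, 4 and 7 days and after MS023 for 7 days; points are the 2 libraries, bars their mean, and the number of genes is in brackets. Histone genes lie near 48% at 7 days of GSK591 and at 91.3% and 96.2% with MS023, and snRNA genes pass from 157% and 150% at 2 days to 50.2% and 46.7% at 7 days.

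GSK591 and MS023 were compared directly at 7 days and 1 µM, which asks how inhibition of PRMT5 differs from that of the Type I enzymes. They differed at 2149 genes (9.38%), 1125 higher (4.91%) and 1024 lower (4.47%) with GSK591. Histone genes separated the inhibitors: 49 of 59 were lower with GSK591 and none higher, with a median difference of -0.95. H3C15 stood at 62.3 and 67.5 CPM with GSK591 and at 190 and 199 with MS023 (-1.58, adjusted p = 5.65e-15). Against the untreated libraries, which both inhibitors share, MS023 called 13.6% of all genes (7.13% higher, 6.51% lower), and 6 histone genes were lower and 3 higher, where GSK591 had 52 lower. Mitotic genes were lower with GSK591 than with MS023 for 16 of 52, replication genes for 13 of 51 and cell cycle control genes for 10 of 27, including E2F1, E2F2 and E2F8. AURKB differed by -1.62 and KIF18B by -1.28. The hnRNP and RGG genes differed for 2 of 25, with a median difference of -0.02, and ribosome biogenesis genes for none of 30.

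Genes higher with GSK591 than with MS023 included ABCA1, at 17.6 and 21.6 against 4.25 and 4.42 CPM (2.17, adjusted p = 2.18e-08), CXCL1 (1.38) and LYNX1 (1.56), the last pair not called with total counts as the scaling. MDM2 was higher by 0.53 and CDKN1A by 0.77, and 7 of 30 p53 targets were higher and 1 lower. Of 32 matrix and adhesion genes, 12 were higher and none lower. NUPR1 was lower with GSK591, at 11.2 and 17.2 against 38.6 and 44.2 (-1.56, adjusted p = 7.15e-10), as was OSGIN1, an NRF2 target (-1.14). These directions are relative to the median gene. With total counts as the scaling the median of all genes moved by -1.07, 97 genes were higher and 15932 lower, the p53 target, matrix, MDM2 and CDKN1A differences turned negative, and those of the histone genes, ABCA1 and NUPR1 kept their sign. Mitochondrial genes moved with that shift: their 13 protein genes had a median difference of 1.40 between GSK591 and MS023, with 12 higher, against 0.28 and none called between GSK591 and untreated cells. The mitochondrial share was 73.7% and 78.7% of counts with GSK591 and 58.7% and 59.6% with MS023, and its part in these differences was not tested.

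The authors' deposited table for GSK591 at 7 days holds 28873 genes, of which 17677 have an adjusted p and 4204 (23.8%) are under 0.05, 1899 higher and 2305 lower. Of the 2285 genes called here and matched to it by symbol, 2120 had the same direction there and 1358 were called in both, 1347 of these in the same direction. That table called 44 of 45 mitotic, 43 of 46 replication, 18 of 23 hnRNP and RGG and 7 of 19 histone genes lower, and 19 of 25 p53 targets higher. In the authors' deposited table AURKB had a log2 fold change of -2.40, CDKN1A of 1.78 and HNRNPA2B1 of -1.22. Of 20 Sm and snRNP core protein genes there, 9 were called lower and none higher. They included SNRPD1 (-0.44, adjusted p = 0.0334) and SNRPD3 (-0.69, adjusted p = 0.000305), which were not called here. SNRPF (-0.44, adjusted p = 0.0693) and LSM8 (-0.18, adjusted p = 0.372), lower here, were not called in the authors' deposited table. Other genes differed there: in the authors' deposited table CCNB2 (-1.59, adjusted p = 8.28e-13) and CCNE2 (-1.16, adjusted p = 0.00831) were lower, and neither passed here, while CENPA, higher here, had a value of -0.03 (adjusted p = 0.914).

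The share of genes called lower differed by gene length and by level. Among protein-coding genes with at least 5 CPM, split into 8 equal groups, 16.4% of the shortest (312 to 6279 bases) and 6.67% of the longest were lower, and 11.6% and 7.68% higher. Lower calls rose from 6.83% in the group with the lowest mean to 20.5% in that with the highest, while higher calls were 8.69% and 8.27%.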

How the data were processed

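PRO-seq libraries of A549 cells were compared from the authors' deposited table of raw counts per gene. featureCounts 2.0.1 of Subread and the build hg38 are named per the submitters' processing notes, while the aligner, the counted feature and the use of strand are not given in the sources used here. The authors' deposited table of their own comparison holds base means as normalized signal, log2 fold changes and p-values, and was used beside the results only. Genes were named with GENCODE 29 and promoters taken from RefSeq GRCh38.p14.

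Counts of all 30 libraries in 15 groups were fitted with edgeR 4.0.16 in R 4.3.3 (TMM scaling, robust quasi-likelihood test, edgeR's own filter on low counts with minimums of 10 and 15 counts), with Benjamini-Hochberg adjustment over 22919 genes at 0.05. Sharing the spread over 15 groups gave 15 residual degrees of freedom. Each of the 6 comparisons has 2 replicates per group. CPM are counts over the TMM-scaled library size.

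The comparison, the lists and the tests were chosen with earlier results of these data known. Genes were named if they belonged to the lists, were among the 15 largest rises or falls at a mean of at least 5 CPM without overlap of groups, were among the 5 called protein-coding genes each way with the highest mean, or were PRMT5, PRMT1, MDM2, CDKN1A, MKI67, CCND1, MYC or NR3C1. The snRNA genes and U1, U2 and U3 loci were added after their values were seen. Alternatives were DESeq2 1.42.0, other scalings, no filter, the compared groups alone, a replicate block and leaving out each library. Replicate numbers are shared by the groups, but the labels tie them to no culture or day, so the main fit has no block. The main test was also run on simulated counts with the spread of these data and 200 of 22919 genes changed. It recovered 7.46% of log2 changes of 0.5, 34.3% of those of 1 and 69.7% of those of 2. Of its 78 calls 5.13% were false. Far fewer genes were changed there than were called in the data. Some single genes are not reported here, though they remain in the counts over genes and lists.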

Additional observations from a re-analysis of the deposited data

Results flagged for a closer look

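At 7 days and 1 µM the responses to GSK591 and MS023 differed by the direct test at 2149 genes (edgeR quasi-likelihood test, Benjamini-Hochberg adjusted p under 0.05). Among the 59 tested histone genes, 49 were lower with GSK591 than with MS023 and none was higher. The number of genes differs with the scaling, as total counts gave 16029, while 58 of the histone genes were then lower.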

How the results depend on the processing

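The main comparison called 3026 genes, against 1834 with DESeq2, 1135 with total counts as the scaling and 1635 to 1797 when 1 library was left out, and each of the 3026 kept its direction. GSK591 for 7 against 2 days called 1922 genes, against 1034 with DESeq2 and 887 to 1010 without 1 library. For 7 against 4 days these were 1901, 972 and 688 to 1038, with 2925 from the compared groups alone and 3663 with total counts. For GSK591 against MS023 they were 2149, 1138 and 1062 to 1230, with 16029 for total counts. With Dex for 15 min they were 3514, 2120 and 1692 to 2892, with 2270 from the compared groups alone, and with Dex for 3 h 3107, 1828 and 1714 to 2144, with 1124 for total counts. The replicate block gave 3110 calls in the main comparison and 1971, 1971, 2230, 3589 and 3174 in the others in this order, and changed no count by over 1.5 times. Same-numbered libraries had deviations with r of -0.06 in the main comparison, 0.31 with Dex for 15 min and 0.02 to 0.06 in the other 4 over 11117 genes, and 2 pairs do not show whether the numbers mark pairs. A fit lacking the second library of the group given MS023 and Dex together for 3 h, which had the highest share of processed pseudogene counts (2.05%), was chosen after seeing the data and gave 3537. Over results on single genes and lists, 3001 alternatives left the result the same. These include genes that stayed uncalled and list counts or medians that stayed within set bounds. A gene lost its call in 233 and gained it in 13, and a list count or median moved in 219. None turned the direction of a called result in the main comparison. Genes that were not called could change sign, PRMT5 running from -0.14 to 0.11. The 2 libraries per group, with 1914570 to 2760754 nuclear counts each, limit what can be detected in genes of low counts.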
